A study of Homo sapiens with 2 samples.

Results

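The genes described here are 9 transcription factors of mesenchymal cells, SNAI1, SNAI2, TWIST1, TWIST2, ZEB1, ZEB2, PRRX1, FOXF1 and FOXC2, and VIM, which encodes the intermediate filament protein vimentin. They were taken by symbol from the deposited gene table, and all 10 were found among its 58735 genes. RNA sequencing compared 2 libraries from the established human glioblastoma line U87MG, grown as glioma spheres for 1 week in stem cell medium. One library came from cells with a pGIPZ lentiviral control shRNA and the other from cells with a lentiviral shRNA against TRIP13, and both had been selected with puromycin. Whether a library represents 1 clone or a pool of selected cells is not given in the sources used here. Each group held 1 library, so there was no replicate error and no test, and every difference below is one between these libraries rather than between the conditions.

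TRIP13, the AAA+ ATPase targeted by the shRNA, had 11.9 FPKM in the control library and 23.1 FPKM in the library labelled TRIP13 shRNA, a ratio of 1.95 (95% counting interval 1.79 to 2.12). The target was thus higher where the label says it was knocked down. That library is therefore called the library labelled TRIP13 shRNA throughout, and every direction is one between libraries as labelled. FPKM, fragments a level per exon length, could be turned back into whole reads, 19903836 in that library and 18871063 in the control library. The deposited FPKM values were divided by 1 common total, so a ratio of FPKM still carries the depth ratio of 1.05, which makes ratios in the library labelled TRIP13 shRNA slightly higher than they would be per read sequenced. Intervals given with ratios are exact (Clopper-Pearson) and those given with levels are exact Poisson intervals. They reflect counting alone and no replicate error, and they treat each read as independent. Sequenced reads lacking molecular identifiers cannot be taken as separate molecules, so the intervals may be too narrow even for counting.

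In epithelial-mesenchymal transition, cells lose cell-cell junctions and gain motility, and zinc finger repressors of the SNAIL family (SNAI1, SNAI2) and the ZEB family (ZEB1, ZEB2) act by binding E-box motifs in the promoters of epithelial genes such as E-cadherin. TWIST1 and TWIST2 are basic helix-loop-helix factors that pair with E proteins, PRRX1 is a paired-related homeobox factor, and FOXF1 and FOXC2 are forkhead factors of mesenchymal tissues. Glioma cells are not epithelial, and in glioblastoma these factors and vimentin are studied as features of a mesenchymal, invasive cell state. ZEB1 and ZEB2 messages are classical targets of the miR-200 family of microRNAs, whose genes the ZEB proteins repress in turn.

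The sequences of that ZEB and miR-200 circuit are shown because the ZEB messages stand apart from the other messages described here in the sites they carry. Mature miR-200 family members, from RefSeq with GRCh38.p14, fall into groups by seed, the bases 2 to 8, in capitals. The first 3 share the seed AAUACUG and the other two the seed AACACUG.
hsa-miR-200b-3p: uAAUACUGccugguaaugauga
hsa-miR-200c-3p: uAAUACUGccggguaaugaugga
hsa-miR-429: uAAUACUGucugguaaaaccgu
hsa-miR-200a-3p: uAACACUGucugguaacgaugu
hsa-miR-141-3p: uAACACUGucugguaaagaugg

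The complements of these seeds, CAGTATT and CAGTGTT, were counted on the sense strand of the 3' UTR of each gene, taken from the GENCODE 29 transcript with the longest one. ZEB1 carried 6 and 3 of them in 2549 bases, and ZEB2 carried 5 and 4 in 5370 bases. Each thus held 9 matches, a number that 6 of 19021 protein-coding genes reached or passed, ZEB1 and ZEB2 among them. Of all 19021 genes 28.3% held at least 1 match, and of 3272 genes with a 3' UTR of 1912 to 3398 bases, near the length of that of ZEB1, 47.1% did. For the 1537 genes with one of 4028 to 7160 bases, near that of ZEB2, the share was 72.9%. SNAI2 and FOXF1 held 1 match each, and SNAI1, TWIST1, TWIST2, PRRX1, FOXC2 and VIM held 0. The following sites are examples from each ZEB gene, 22 bases on the sense strand with the seed match in capitals. A match of letters is not evidence that the site was used in these cells.
ZEB1 chr10:31527619-31527640, plus strand: ttgttttatcttatCAGTATTa
ZEB1 chr10:31528783-31528804, plus strand: gagatttgatttaaCAGTGTTa
ZEB2 chr2:144388989-144389010, minus strand: gcactacaatgcatCAGTATTa
ZEB2 chr2:144388710-144388731, minus strand: gtgccatccttgtaCAGTGTTa

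The libraries do not measure mature microRNAs. MIR200CHG, the host transcript of miR-200c and miR-141, had 0 reads in the control library and 1 in the other. MIR200A, MIR200B, MIR200C, MIR141 and MIR429 had 0 reads in both.

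Promoter sequence was searched for CACCTG on both strands, the E-box bound by SNAIL and ZEB proteins, in the 250 bases before each start site. RefSeq windows with GRCh38.p14 were matched for 5 of the 10 genes, PRRX1, ZEB1, ZEB2, TWIST2 and VIM, and ZEB1 has several. The motif occurs in 17.5% of 35116 such windows. It was absent from the windows of PRRX1, ZEB2, TWIST2 and VIM. The windows of PRRX1 and ZEB2 lie inside the annotated gene and overlap its exons, and that of TWIST2 overlaps its exons in part. Absence from the PRRX1 and ZEB2 windows thus does not describe the sequence upstream of those genes. Of the ZEB1 windows, the one printed here lies upstream of the annotated gene and held 1 copy. Another, inside the gene and overlapping its exons, held 2, and the remaining ZEB1 windows held 0. The windows of ZEB1 and VIM are shown as a factor with a lower level in 1 library and the gene whose level differed least, with the motif in capitals.
ZEB1 chr10:31318167-31318416, plus strand: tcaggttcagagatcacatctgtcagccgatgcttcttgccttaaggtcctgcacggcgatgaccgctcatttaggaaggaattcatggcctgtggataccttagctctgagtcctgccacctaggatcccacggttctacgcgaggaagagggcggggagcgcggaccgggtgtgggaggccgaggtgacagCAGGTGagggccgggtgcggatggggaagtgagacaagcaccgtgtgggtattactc
VIM chr10:17227991-17228240, plus strand: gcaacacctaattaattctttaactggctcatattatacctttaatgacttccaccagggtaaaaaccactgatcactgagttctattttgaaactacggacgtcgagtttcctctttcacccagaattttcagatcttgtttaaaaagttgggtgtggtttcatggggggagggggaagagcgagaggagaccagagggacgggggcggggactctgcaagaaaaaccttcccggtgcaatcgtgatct

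Among the SNAIL factors, SNAI2 was abundant and SNAI1 was close to the limit of detection. SNAI2 (ENSG00000019549, chromosome 8, 48917604 to 48921740, minus strand, hg38 as for all positions here), also known as Slug, had 61.7 FPKM from 4057 reads in the control library and 34.9 FPKM from 2295 reads in the library labelled TRIP13 shRNA. Its ratio was 0.566 (0.537 to 0.596). It ranked 14 among 1553 transcription factors of the table in the control library and 31 in the other, so it remained the most abundant of the 9 factors in both. SNAI1 (ENSG00000124216, chromosome 20, 49982999 to 49988886, plus strand), the founding Snail repressor, had 15 reads in the control library and 5 in the library labelled TRIP13 shRNA, or 0.459 and 0.153 FPKM. The ratio of 0.333 had an interval from 0.0948 to 0.965, so its size is poorly determined at this depth. Per length, SNAI2 exceeded SNAI1 134-fold in the control library and 228-fold in the library labelled TRIP13 shRNA.

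TWIST1 (ENSG00000122691, chromosome 7, 19020991 to 19117672, minus strand) had 15.5 FPKM in the control library and 11.02 FPKM in the library labelled TRIP13 shRNA, from 611 and 434 reads. Its ratio of 0.710 (0.627 to 0.805) was nearer to 1 than that of SNAI2. TWIST2 (ENSG00000233608, chromosome 2, 238848032 to 238910543, plus strand) was the minor Twist transcript, at 1.54 and 0.907 FPKM from 56 and 33 reads, with a ratio of 0.589 (0.371 to 0.922). The intervals of the 2 TWIST ratios overlapped, so no difference between these paralogs was detectable at this depth. TWIST1 stood 10.1-fold above TWIST2 in the control library and 12.1-fold in the other.

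ZEB1 and ZEB2 were at similar levels to each other, and both had fewer reads in the library labelled TRIP13 shRNA than in the control library. ZEB1 (ENSG00000148516, chromosome 10, 31318495 to 31529814, plus strand) had 6.05 FPKM in the control library and 3.93 FPKM in the library labelled TRIP13 shRNA, from 1014 and 659 reads, a ratio of 0.650 (0.588 to 0.718). ZEB2 (ENSG00000169554, chromosome 2, 144364364 to 144524583, minus strand) had 7.18 and 4.08 FPKM from 3485 and 1979 reads, a ratio of 0.568 (0.537 to 0.600). ZEB2 was above ZEB1 beyond counting error in the control library, while in the library labelled TRIP13 shRNA their intervals overlapped. The merged exons of ZEB2 span 25058 bases, against 9541 for its transcript with the longest 3' UTR, and this lowers its FPKM. Divided by the length of that transcript, a choice made after seeing the data, the level of ZEB2 was 18.8 in the control library and 10.7 in the other, against 8.73 and 5.68 for ZEB1.

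PRRX1 (ENSG00000116132, chromosome 1, 170662728 to 170739419, plus strand) was 1 of 2 genes among the 10 that differed at least 2-fold with 1 added to each FPKM. It had 27.3 FPKM from 4357 reads in the control library and 9.99 FPKM from 1597 reads in the library labelled TRIP13 shRNA. This is a 2.73-fold lower level (2.58 to 2.89). PRRX1 ranked 45 among transcription factors in the control library and 181 in the library labelled TRIP13 shRNA. It stood above TWIST1 in the control library, whereas in the other their intervals overlapped. Divided by the length of 1 transcript, its level in the library labelled TRIP13 shRNA was 19.2 and that of TWIST1 13.4.

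The forkhead genes FOXF1 and FOXC2 lie close together on chromosome 16, and their ratios were far apart. FOXF1 (ENSG00000103241, 86510527 to 86515418, plus strand) had 182 reads in the control library and 8 in the library labelled TRIP13 shRNA, or 2.67 and 0.117 FPKM. It was 22.8-fold lower (11.3 to 53.5), the most of the 10 genes, and its rank among transcription factors was 547 in the control library and 980 in the other. FOXC2 (ENSG00000176692, 86566829 to 86569728, plus strand) had 8.52 and 7.58 FPKM from 479 and 426 reads. Its ratio of 0.889 had an interval from 0.779 to 1.02 that includes 1. With each library divided by its own total it was 0.843 (0.738 to 0.963), and the interval also lay below 1 under the other scalings, so whether a difference in FOXC2 was detectable depended on the scaling.

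VIM (ENSG00000026025, chromosome 10, 17228259 to 17237593, plus strand) had 442 FPKM from 44161 reads in the control library and 427 FPKM from 42661 reads in the library labelled TRIP13 shRNA. Its level ranked 46 and 54 among protein-coding genes. The ratio was 0.966 (0.953 to 0.979), so the depth of VIM resolves a difference of this size only if reads are taken as independent. The difference was the smallest of the 10. Dividing each library by its own total gave a log2 ratio of -0.13 in place of -0.05. The ratio of VIM lay between 0.877 and 0.921 under the 4 other scalings. The summed FPKM of the 9 factors was 130.9 in the control library and 72.7 in the library labelled TRIP13 shRNA, a ratio of 0.555. SNAI2 made up 47.1% and 48.0% of those sums.

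**Figure D1:**
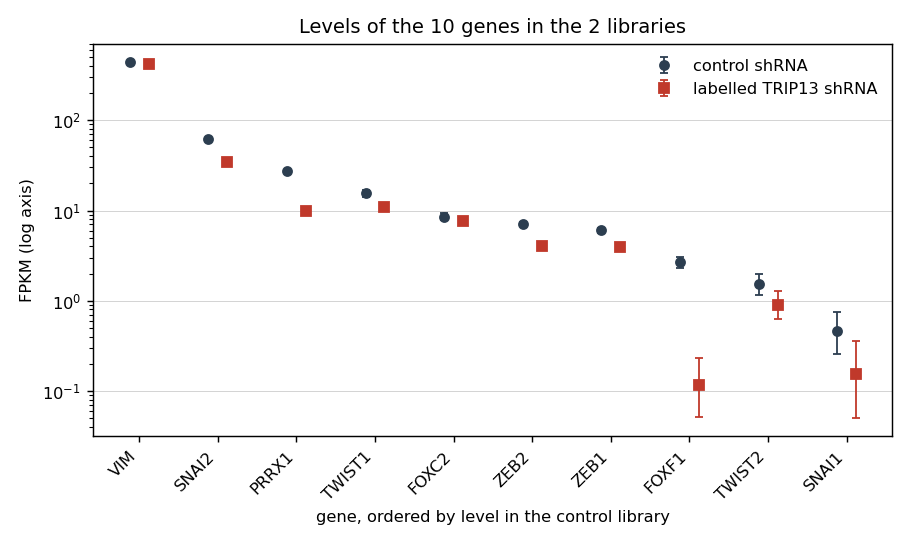
Levels of the 10 genes in FPKM on a log axis, control library (circles) and library labelled TRIP13 shRNA (squares), each point 1 library with its 95% Poisson counting interval. VIM stands at 442 and 427 FPKM and FOXF1 at 2.67 and 0.117 FPKM, and each square lies below its circle.

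In the control library the order of levels was VIM, SNAI2, PRRX1, TWIST1, FOXC2, ZEB2, ZEB1, FOXF1, TWIST2 and SNAI1, and no neighbours in it had overlapping counting intervals. In the library labelled TRIP13 shRNA, TWIST1 preceded PRRX1 and FOXF1 was last, and the intervals of TWIST1 and PRRX1, of ZEB2 and ZEB1 and of SNAI1 and FOXF1 overlapped. VIM, SNAI2, FOXC2, ZEB2 and ZEB1 kept their places, 5 of the 10 genes. Divided by the length of 1 transcript, PRRX1 preceded TWIST1 in both libraries, ZEB2 preceded FOXC2 in both, and 7 genes kept their places.

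All 10 genes had a lower FPKM in the library labelled TRIP13 shRNA, and for 9 of them, all but FOXC2, the counting interval of the ratio lay below 1. With each library divided by its own total, 10 of 10 did, beside 34% of the tested genes described next. The filter used below, an average of at least 1 FPKM over both libraries, left 10671 protein-coding genes. Of these 39.6% were lower in that library, 29.5% had an interval below 1 and 49% had one above 1. Among 16252 protein-coding genes with at least 1 read in either library, a set that SNAI1 also belongs to, 47.8% were lower, 2.92% had a log2 ratio of -1 or less and 1.44% of 1 or more. The log2 ratio, taken of FPKM plus 1 and so understating differences of weakly expressed genes, was -1.72 for FOXF1 and -1.36 for PRRX1, the 2 of 10 genes at -1 or less. Of the 10671 genes 4.19% were at -1 or less and 2.17% at 1 or more, and 0 of the 10 genes were at 1 or more. Of all genes past this rule 34.2% were higher in the library labelled TRIP13 shRNA, a share that was 20.1% with the median ratio set to 1 and 22.5% in TPM. Either scaling shifted the median of tested genes by -0.12, in TPM over the 12183 genes that then passed the filter. Both scalings lower every ratio, so the log2 ratios of the 10 genes could only remain below 0. The median log2 ratio over all 10 genes was -0.49, beside 0.12 over the 10671 genes. In all, 9 of the 10 passed the filter on mean FPKM, and FOXF1 and TWIST2 did so only through their control library. Transcription factors, by the family column of the deposited table, had a lower median than all genes tested. Of 780 factors past the filter 54.7% had a lower level in the library labelled TRIP13 shRNA and 40.1% had an interval below 1. Of the same 780, 4.74% were at -1 or less, 2.44% were at 1 or more, and the median log2 ratio was -0.05.

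**Figure D2:**
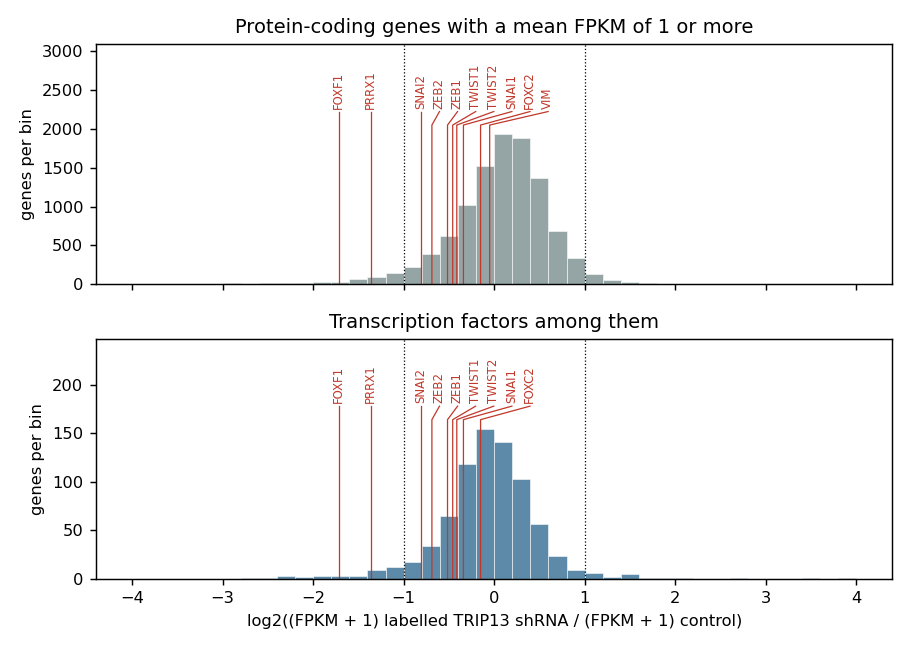
Log2 ratios of all 10671 protein-coding genes past the filter (top) and of the 780 transcription factors among them (bottom), in genes per bin, with values beyond the axis in its end bins. Red lines mark the genes described here, SNAI1 included although it did not pass the filter, and all of them lie below 0, with FOXF1 and PRRX1 beyond the dotted line at -1.

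Noncoding genes that share a locus with these genes were read beside them. Of 18 annotated genes within 5 kb, 6 had at least 20 reads over both libraries. VIM-AS1, an antisense gene at the start of VIM, had 232 reads in the control library and 136 in the library labelled TRIP13 shRNA. Its ratio of 0.586 (0.471 to 0.728) lay below that of VIM with no overlap of the intervals. ZEB1-AS1, which starts beside ZEB1 on the other strand, had 101 and 63 reads, a ratio of 0.624 (0.448 to 0.863) that overlapped that of ZEB1. Z97200.1, a lincRNA inside the PRRX1 locus, had 30 and 10 reads, a ratio of 0.333 (0.145 to 0.701) around that of PRRX1. FOXC2-AS1, with 12 and 13 reads, and AL117340.1, a pseudogene within ZEB1, with 15 and 7, had intervals that include 1. Of the exon length of VIM 24.4% is shared with other annotated genes, and the shares were 6.94% for TWIST1, 5.18% for ZEB2, 5% for FOXC2 and 4.23% for ZEB1. The strand setting of the counting is not given in the sources used here, so reads of these overlapping stretches cannot be told apart.

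**Figure D3:**
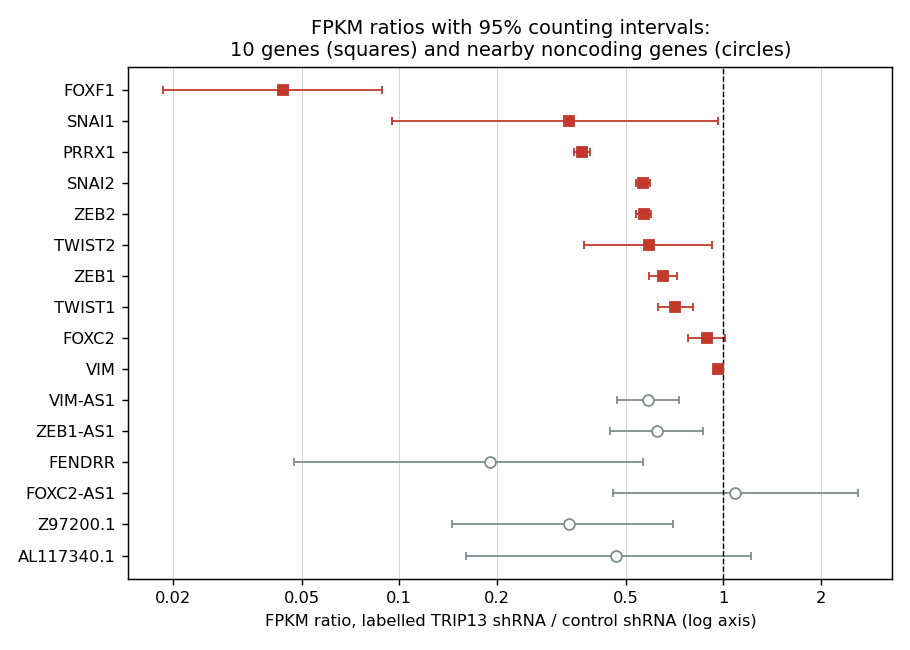
FPKM ratio of the library labelled TRIP13 shRNA to the control library on a log axis, with 95% counting intervals, for the 10 genes (squares) and 6 nearby noncoding genes (circles). FOXF1 stands far to the left at 0.0440, and VIM lies closest to the dashed line of equal levels while VIM-AS1 stands at 0.586.

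The forkhead cluster of chromosome 16 held genes with unlike ratios. FENDRR, a lincRNA transcribed away from FOXF1 from a start 1.43 kb upstream, had 21 reads in the control library and 4 in the library labelled TRIP13 shRNA, a ratio of 0.190 (0.0475 to 0.565). MTHFSD, which lies between the forkhead genes and is no forkhead gene, had 371 and 424 reads, a ratio of 1.14 (0.992 to 1.32). FOXC2, 56.3 kb from the start of FOXF1, had the ratio of 0.889 given above, and FOXL1, the next forkhead gene at 65.8 kb, had 51.8 FPKM from 3759 reads in the control library and 19.5 FPKM from 1415 reads in the other. The ratio of FOXL1 was 0.376 (0.354 to 0.400). The lower levels of FOXF1, FENDRR and FOXL1 thus lay on both sides of MTHFSD, whose interval included 1 under each of the scalings. The genes of this window were chosen for their position after their values were seen.

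**Figure D4:**
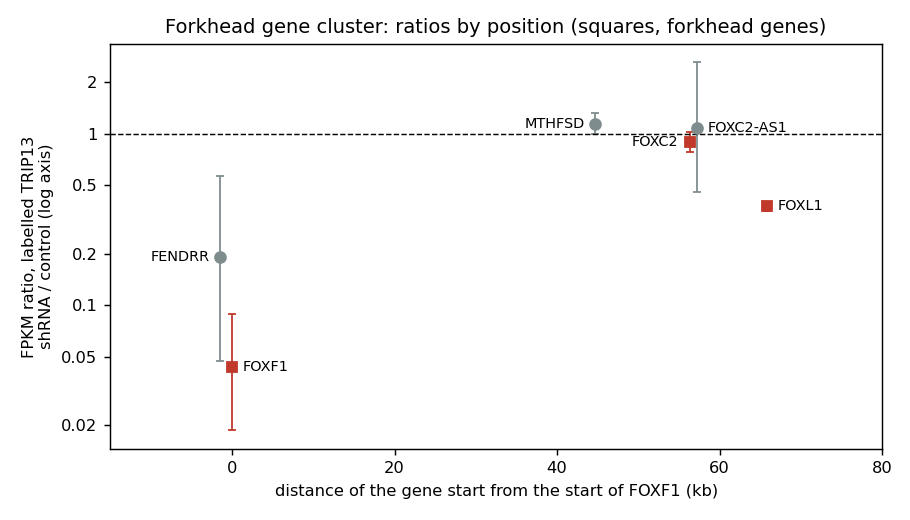
FPKM ratio on a log axis, with 95% counting intervals, against the distance of each gene's start from the start of FOXF1, for the 6 genes of the cluster with at least 20 reads. FOXF1, FENDRR and FOXL1 lie below 0.5, while MTHFSD, FOXC2 and FOXC2-AS1 lie near the dashed line of equal levels.

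Most near relatives of the 9 factors that passed the filter had a lower level as well. Of 15 such genes 6 passed the filter, 5 of these were lower, 3 were at -1 or less and the median log2 ratio was -0.79, or -0.32 without the filter. Over all 15, 8 were lower and 2 higher. Of all genes tested, 39.6% were lower and 4.19% were at -1 or less. Among protein-coding genes with at least 1 read, 47.8% were lower. PRRX2 and SNAI3 passed the filter only through the control library. Besides FOXL1, the paired-related homeobox gene PRRX2 had 78 reads in the control library and 14 in the library labelled TRIP13 shRNA, a ratio of 0.179 (0.0938 to 0.319), and SNAI3 of the SNAIL family had 67 and 12, a ratio of 0.179 (0.0882 to 0.334). FOXC1 had 1.998 and 1.21 FPKM and the bHLH factor MSC 18.1 and 15.5 FPKM. The bHLH factor SCX, at 2.53 and 2.79 FPKM, had an interval that includes 1. For 5 of the 15, FOXF2 among them, both libraries held 0 reads.

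Partners of the TWIST proteins did not differ together. The E proteins, with which TWIST factors form dimers, stood at 17.6 FPKM in the control library and 18.6 FPKM in the library labelled TRIP13 shRNA for TCF3, 8.14 and 6.93 for TCF12 and 0.873 and 0.599 for TCF4. The interval of TCF3 (0.993 to 1.12) included 1, and those of TCF12 (0.789 to 0.918) and TCF4 (0.593 to 0.792) lay below it. The ID proteins, which lack a DNA-binding region and sequester E proteins, were higher in the library labelled TRIP13 shRNA, 4 of 4. ID1 had 12.8 and 146 FPKM, ID2 1.83 and 17.4, ID3 3.19 and 64.1, and ID4 0.418 and 1.497. With the summed FPKM of the E proteins at 26.6 and 26.1, the summed level of the ID genes was 18.2 FPKM in the control library and 229 FPKM in the library labelled TRIP13 shRNA.

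Of 15 corepressors that SNAIL and ZEB factors recruit 0 passed the 2-fold rule on FPKM plus 1 in either direction. Without the added 1 the FPKM ratio of EZH2 was 2.02. Their median log2 ratio was 0.11, close to the 0.12 of all genes tested. This median turned to -0.0204 with the median ratio of tested genes set to 1. EZH2, the polycomb methyltransferase, had 14.7 FPKM in the control library and 29.8 FPKM in the library labelled TRIP13 shRNA, PRMT5, an arginine methyltransferase, 8.68 and 13.9, and EED, a polycomb subunit, 1.54 and 2.82. The lowest log2 ratios were those of CHD4, MTA3 and CTBP2. Their intervals include 1 as deposited, and those of CHD4 and MTA3 lay below 1 in TPM and with the median ratio set to 1. Among 18 tested genes of kinases, ligases and deubiquitinases that set the stability of SNAIL, TWIST or ZEB proteins, 1 was at -1 or less, the casein kinase CSNK1E at 21.7 and 9.31 FPKM, and 7 lay above 0. FBXL14, a ligase subunit for SNAIL proteins, had 8.57 and 11.5 FPKM, FBXO45 3.49 and 5.59, and the proteasomal deubiquitinase PSMD14 16.5 and 24.9. ATM, which phosphorylates ZEB1, had 3.23 and 2.06 FPKM, and USP51 1.40 and 0.855.

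Most epithelial genes stayed below 1 FPKM in both libraries. CDH1, E-cadherin and the classical target of these repressors, had 2 reads in the control library and 1 in the library labelled TRIP13 shRNA, a ratio with an interval from 0.00847 to 9.60. Of 27 epithelial junction and polarity genes 20 were below 1 FPKM in both libraries. In the library labelled TRIP13 shRNA 21 of 27 had a lower level, 4 were higher and 2 had 0 reads in both. Among protein-coding genes with at least 1 read in either library 47.8% were lower. Some of the 27 differed by few reads, such as DSP with 2 in the control library and 0 in the other. Others differed by more, such as CDH3 with 85 and 1. Of the 4 genes that passed the filter, TJP1, a tight junction scaffold, had 4.81 FPKM in the control library and 6.75 FPKM in the other. LSR had 1.72 and 2.85, whereas F11R had 4.57 and 3.09 and PPL, periplakin, 1.96 and 0.349. PPL passed the filter only through the control library. Of 15 epithelial transcription and splicing factors 13 were below 1 FPKM in both libraries, and GRHL2 and OVOL2, which oppose ZEB1, had 0 reads. The exceptions were KLF4, at 1.07 and 1.09 FPKM, and KLF5, at 4.40 and 5.92 FPKM. CDH1 and most other epithelial genes were thus below 1 FPKM in both libraries, at the higher and at the lower level of the SNAIL and ZEB factors. Some of those below 1 FPKM still had a ratio with an interval below 1, such as PATJ with 103 and 62 reads.

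Mesenchymal effector genes did not differ in 1 direction. Of 19 tested, 10 were lower and 8 higher in the library labelled TRIP13 shRNA, 1 was equal, 3 were at -1 or less and the median log2 ratio was -0.04, beside 0.12 for all genes tested. FN1, fibronectin, had 329 FPKM in the control library and 85.3 FPKM in the library labelled TRIP13 shRNA, NT5E, the ectonucleotidase CD73, 230 and 79.3, and TNC, tenascin C, 152 and 68.2. In contrast CDH2, N-cadherin, had 9.76 and 14.2 FPKM, a ratio of 1.45 (1.33 to 1.58), AXL, a receptor tyrosine kinase, 43.3 and 78.5, and LOX, a collagen cross-linking enzyme, 24.4 and 44.9. CDH2 was therefore higher in the library where the 9 factors were lower. VIM was lower there like the factors, with a ratio of 0.966 that lies within the interval of FOXC2 (0.779 to 1.02).

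Other filament genes differed from VIM. NES, nestin, which forms filaments together with vimentin, had 5.23 FPKM in the control library and 2.21 FPKM in the library labelled TRIP13 shRNA, a ratio of 0.423 (0.362 to 0.493). GFAP, the astrocyte filament protein, had 92 and 28 reads and stayed below 1 FPKM. The nuclear lamins were higher, LMNA at 84.0 and 144 FPKM, LMNB1 at 16.3 and 31.7 and LMNB2 at 94.6 and 116. Of 15 linkers and kinases of vimentin filaments 0 passed the 2-fold rule on FPKM plus 1, with a median log2 ratio of 0.28. Without the added 1 the FPKM ratio was 2.02 for AURKB and 2.02 for PLK1. The mitotic kinases AURKB (23.5 and 47.5 FPKM), PLK1 (21.7 and 43.8) and CDK1 (25.4 and 48.8), which phosphorylate vimentin in dividing cells, had the highest log2 ratios of the 15. The cytolinker MACF1 (15.8 and 9.82), the dynein heavy chain DYNC1H1 (51.6 and 32.3) and the cytolinker DST (11.2 and 9.20) had the lowest.

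Of 20 other transcription factors described in epithelial-mesenchymal transition 13 passed the filter, with 7 above 0, 6 below and a median log2 ratio of 0.01 that was below 0 under 5 of the alternatives. SOX9 had 4.39 FPKM in the control library and 0.747 FPKM in the library labelled TRIP13 shRNA. It was the 1 tested gene at -1 or less, and it passed the filter only through the control library. TBX3 had 5.62 and 3.38 FPKM and TBX2 7.19 and 5.29. FOSL1, a FOS family factor, had 259 and 479 FPKM, RUNX1 6.38 and 8.36 and RUNX2 5.68 and 7.20.

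**Figure D5:**
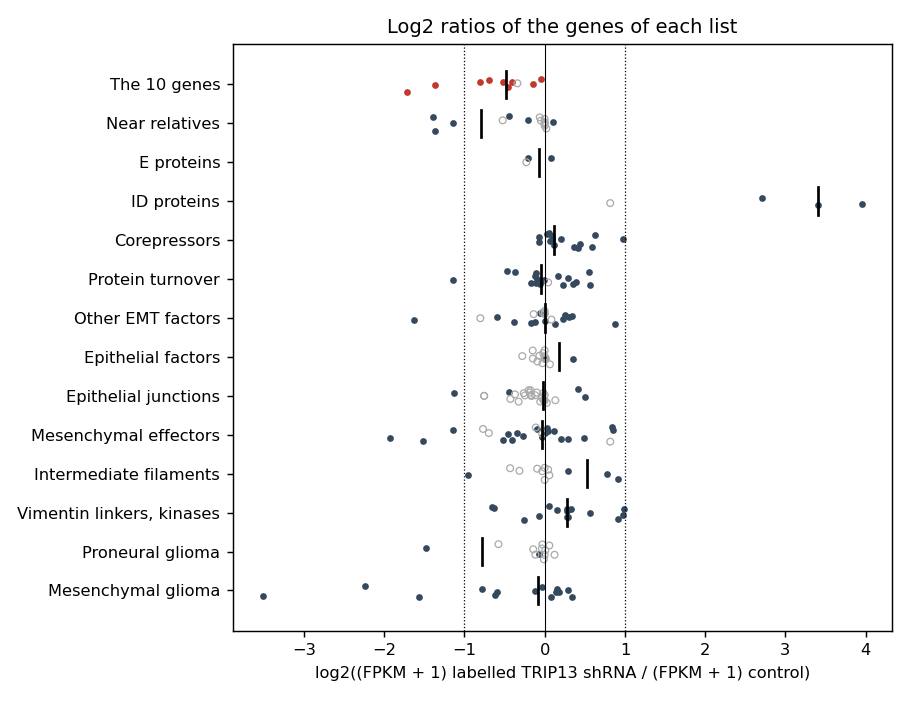
Log2 ratio of each gene by list, with filled points for genes past the filter on mean FPKM and open points for those below it, and bars for medians of the filled points (of all 10 genes in the first row, where SNAI1 is below the filter). The 10 genes all lie left of 0, the ID proteins lie right of it and the mesenchymal effectors lie on both sides.

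Markers of cell types were read to see what the libraries hold. Astrocyte markers (5 of 5) and epithelial cell markers (6 of 6) were below 1 FPKM in both libraries, and the stem cell markers SOX2 and PROM1 had 2 and 5 reads in the control library and 1 read each in the other. Of the 6 stem cell markers, NES, OLIG2 and FUT4 (0.954 and 1.23 FPKM) averaged at least 1 FPKM, and the summed FPKM of the list was 8.98 in the control library and 3.81 in the other. Fibroblast markers, which mesenchymal glioma cells also express, had lower levels, as did most markers of the other cell types. In the library labelled TRIP13 shRNA 6 of 6 fibroblast markers had a lower level, beside 47.8% of protein-coding genes with at least 1 read. Their summed FPKM was 136.6 in the control library and 90.2 in the other. PDGFRB had 12.4 and 1.74 FPKM, DCN 1.55 and 0.133, LUM 7.55 and 2.08, FAP 20.6 and 10.1, COL1A2 65.1 and 48.8, and COL1A1 29.4 and 27.4. Fewer cells of a type and less RNA per cell cannot be told apart in bulk RNA, and the part of these markers in the lower level of the factors was not tested. Endothelial (5.65 and 2.98), macrophage (4.53 and 3.78) and neuronal markers (10.03 and 8.14) had low summed FPKM in both libraries. In the library labelled TRIP13 shRNA 5 of 5 endothelial, 4 of 5 macrophage and 4 of 5 neuronal markers were lower. The counts were 4 of 6 for stem cell, 4 of 6 for epithelial cell and 3 of 5 for astrocyte markers.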

How the data were processed

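RNA sequencing libraries of 2 samples, 1 per group, were made with a NEBNext Ultra kit from RNA extracted in TRIZOL, per the labels' protocols. The authors deposited FPKM values per gene. Per the submitters' processing notes the tools were HISAT2 2.0.5, featureCounts 1.5.0-p3 and edgeR, with hg38, and neither roles nor settings are given there. Gene lengths equalled the merged exon lengths of GENCODE 29 for all 58735 genes. FPKM times length was a whole multiple of 51.6 in both libraries (100% of values within 0.01 of a read), which gave the reads used for counting intervals. Log2 ratios used FPKM plus 1, a filter of mean FPKM of 1 or more in protein-coding genes, and a size rule of 1 or -1.

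Named genes were the 10 members, TRIP13, CDH1, CDH2 and FN1, genes within 5 kb of a member with 20 reads, all genes of lists of 5 or fewer, and up to 3 at each end of longer lists. Marker genes and others named outside this rule were chosen after their values were seen. Members and lists were chosen with earlier results of these data known. Alternatives were pseudocounts, filters, scalings and, added after seeing the data, transcript lengths. The calculations were tested on simulated data. Figures were drawn with matplotlib 3.10.9, and the calculations ran in scipy 1.17.1, pandas 2.3.3 and numpy 2.4.6 under Python 3.11.15.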

Additional observations from a re-analysis of the deposited data

How the results depend on the processing

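No paired analysis was possible because there is only 1 library in a group. The log2 ratio of each of the 10 genes stayed below 0 under the 6 alternatives of pseudocount and scaling, with 39 of 60 values inside and 21 outside the counting interval of the deposited value, taken on the same log2 scale of FPKM plus 1. No sign could turn with a pseudocount, which keeps the sign by construction. The 4 scalings multiply every ratio by 0.948, 0.907, 0.922 or 0.954, so a ratio already below 1 could not turn either. The median over the 10 genes, -0.49, was -0.75 with a pseudocount of 0.1, -0.33 with 5 and -0.77 in TPM. FOXF1 ranged from -3.67 to -0.58 and was past the 2-fold rule except with a pseudocount of 5. The number of tested members at least 2-fold lower, 2, was 1 with a pseudocount of 5 (PRRX1) and 1 with a mean FPKM of 5 or more, which leaves FOXF1 out of the genes tested. The genes past the rule in either direction, 679, were 1085 with a pseudocount of 0.1 (408 higher, 677 lower, against 232 and 447 as deposited), 244 with 5 (64 and 180) and 1233 in TPM (277 and 956). In TPM the filter and the added 1 are in other units, and 12183 genes passed the filter, against 10671 as deposited. With the median ratio set to 1, 138 were higher and 547 lower. Of the genes past the rule 34.2% were higher as deposited, 26.2% with a pseudocount of 5, 25.8% with each library divided by its own total, 20.1% with the median ratio set to 1 and 22.5% in TPM. The median ratio of 1 and TPM shifted the median log2 ratio of tested genes by -0.12 each. Of 13 list medians 7 were below 0 as deposited and 3 of 12 with a mean FPKM of 5 or more, where no proneural gene is left. ZEB2 took place 6 of the 10 levels in the control library, and place 5 with the length of 1 transcript. With that length, PRRX1 moved from place 4 to 3 in the library labelled TRIP13 shRNA and TWIST1 from 3 to 4. Counting intervals of the ratio lay below 1 for 9 of the 10 genes as deposited and for 10 under each of the 4 scalings, which was added after seeing the data. Of the tested genes 29.5% had such an interval as deposited and between 33.5% and 38.1% under the scalings.

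List medians turned sign as follows. Other factors of epithelial-mesenchymal transition were at -0.0633 with own totals, -0.12 with the median ratio set to 1, -0.14 in TPM, -0.0556 with totals without mitochondrial and the 50 most abundant genes, and -0.0243 without a filter. Corepressors were at -0.0204 with the median ratio set to 1 and epithelial factors at -0.0283 without a filter. With a mean FPKM of 5 or more, protein turnover was at 0.0317, epithelial junctions at 0.41 and mesenchymal effectors at 0.0166, from fewer genes. For the alternatives of scaling, the cause was not tested.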

Other observations

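The families to which these factors belong were compared by the family column of the deposited table, a choice made after seeing the data. The counts include the factors described here that passed the filter, so FOXF1 and PRRX1 are among the genes at -1 or less. The family counts stand beside the whole set of 780 tested factors, where 54.7% lay below 0 and 4.74% at -1 or less. Shares at -1 or less were 7.84% for homeobox, 12.5% for forkhead, 11.9% for bHLH and 1.31% for C2H2 zinc finger genes. Whether any family differed from the whole set was not tested. Of 51 homeobox genes past the filter 33 had a lower level in the library labelled TRIP13 shRNA, 4 of them at -1 or less. Besides PRRX1 and PRRX2 these were SIX4, at 3.53 FPKM in the control library and 0.883 FPKM in the other, and MEIS3, at 14.1 and 5.67. The homeobox genes DLX2 (0.764 and 7.11 FPKM) and DLX1 (5.48 and 12.3) were at 1 or more. Of 16 forkhead genes 13 were lower, and FOXF1 and FOXL1 were the 2 at -1 or less, while FOXM1, a factor of the mitotic program, had 14.8 and 32.6 FPKM. Of 305 C2H2 zinc finger genes, the family of SNAI2, ZEB1 and ZEB2, 171 were lower with a median log2 ratio of -0.05 and 4 were at -1 or less, GLI2, KLF9, SNAI3 and PRDM8. Of 42 bHLH genes 26 were lower, with 5 at -1 or less and 4 at 1 or more. The 5 were the sterol regulators SREBF2 (44.9 and 7.40 FPKM) and SREBF1 (23.6 and 11.3), HES7 (4.39 and 0.304), OLIG2, and MXI1 (7.93 and 2.80), and the 4 were ID1, ID2, ID3 and ATOH8. ATOH8, a bHLH factor, had 6 reads in the control library and 291 in the library labelled TRIP13 shRNA. Of the genes with levels given here, SIX4, HES7 and OLIG2 passed the filter only through the control library, as did FOXF1 and PRRX2. DLX2 and ATOH8 passed it only through the library labelled TRIP13 shRNA.

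Glioma subtype genes were read beside the mesenchymal factors. Of 12 proneural genes 10 were below 1 FPKM in both libraries. OLIG2 had 2.72 FPKM in the control library and 0.339 FPKM in the library labelled TRIP13 shRNA, and NCAM1 had 3.99 and 3.74. OLIG2 passed the filter only through the control library. PDGFRA, a receptor tyrosine kinase of the proneural list, had 97 and 3 reads. Of 14 regulators and markers of mesenchymal glioma 8 were lower and 6 higher, with 3 at -1 or less and a median log2 ratio of -0.08. Of all genes tested, 39.6% were lower and 4.19% were at -1 or less, and their median was 0.12. CHI3L1 (670 and 57.8 FPKM), CEBPD (19.8 and 3.41) and TIMP1 (602 and 202) had the lowest log2 ratios, and RUNX1 (6.38 and 8.36) and MET (48.4 and 55.1) were among those with a higher level in the library labelled TRIP13 shRNA.

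Some mesenchymal genes below the filter differed many-fold between the libraries. The cadherin CDH11 had 184 reads in the control library and 1 in the library labelled TRIP13 shRNA, a ratio of 0.00543 (0.000137 to 0.0307). THY1, a surface glycoprotein, had 76 and 3 reads. POSTN, periostin, went the other way with 11 and 100 reads, a ratio of 9.09 (4.87 to 18.8). These genes and PDGFRA were chosen after their values were seen, and they are given as values with no explanation.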
